A study of Vitis vinifera with 6 samples.

Results

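The genes described here stood more than 4-fold higher in 1 grapevine seed trace library, seedless replicate 1, than in both other seed trace libraries. A gene was taken where RPKM + 1 in seedless replicate 1 was over 4 times RPKM + 1 in seedless replicate 2 and in seedless replicate 3, and where the 3 seed libraries averaged at least 1 RPKM. RPKM scales the reads of a gene to the length of its model and to the total of its library. The rule took 177 of the 29536 genes read from the table, or 0.99% of the 17918 genes with that seed mean. The genes were thus chosen by the measured levels of all 3 seedless libraries and the seed mean, and the excess of seedless replicate 1 over replicates 2 and 3 is a description and was not tested.

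RNA-seq was done on what the berries of F1 hybrids held in place of or as seed, 4 weeks after anthesis, when berries measured 10 to 12 mm. The parents were Red Globe, a seeded table grape, and Crimson Seedless. The seedless class was made of seed traces of 3 hybrids labelled sdi+ (669-60, 670-17 and 675-17, replicates 1 to 3). The seeded class was made of seeds of 3 hybrids labelled sdi- (665-17, 671-19 and 677-06, replicates 1 to 3). All plants grew in the same field. Material from 12 to 50 fruits went into a library, and each hybrid gave a single library, so that a hybrid and its library cannot be told apart. The question put to these genes was the position of seedless replicates 2 and 3: between seedless replicate 1 and the seeds, or level with the seeds.

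In stenospermocarpic grapes fertilization takes place and the seed begins to form, then the endosperm and the seed coat stop developing and a soft trace remains. How far a trace gets before it stops is known to vary between seedless varieties and between sister hybrids. A trace library therefore mixes seed coat, nucellus and any endosperm and embryo in proportions that can differ from those of a seed of the same age. In such bulk samples fewer cells of a type and less RNA per cell cannot be told apart.

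Reads were recovered from the RPKM steps as the smallest whole numbers that give the values, with the largest library totals that do so, and they hold only if that choice does. They came to 6276385 to 7368804 per library in the seedless class and 7690325 to 9332466 in the seeded class. A median member had 396 reads in seedless replicate 1, 46 and 43 reads in seedless replicates 2 and 3, and 33, 39 and 30 reads in seeded replicates 1 to 3. The files carry no gene names, and none of the identifiers matched the reference gene table used here, so the genes are given by identifier alone. VIT_18s0041g01880, known from published work on this locus as VviAGL11, a MADS-box gene of the seed coat, was not a member. Its level was 47.5 RPKM in seedless replicate 1, 197.1 and 177.0 RPKM in the other traces, and 271.7, 288.4 and 286.9 RPKM in the seeds, so the seed coat gene was expressed in every library and lowest in seedless replicate 1.

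The members were abundant in seedless replicate 1 and low to moderate in most other libraries. Their median level was 47.5 RPKM there, 5.57 and 5.66 RPKM in seedless replicates 2 and 3, and 3.88, 3.52 and 2.85 RPKM in the 3 seed libraries. Together they took 2.31% of the summed RPKM of seedless replicate 1. In seedless replicates 2 and 3 they took 0.334% and 0.378%, and in seeded replicates 1 to 3 they took 0.306%, 0.27% and 0.234%. The libraries themselves were close in scale, with medians over the 18749 tested genes of 13, 12.8 and 12.5 RPKM in the seedless and 12.2, 12.3 and 11.9 RPKM in the seeded libraries. In seedless replicate 1, 173 of the 177 genes were above all 3 seed libraries and the other 4 lay within the range of the seeds. The rule took genes for a high value in that library, which favours such an excess. The same share over all genes was not computed, so the count is a description. On the log2(RPKM + 1) scale used for all differences below, seedless replicate 1 exceeded the seed mean by a median of 3.00, from -0.73 to 7.81.

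Seedless replicates 2 and 3 did not take a single position. In 60 of the 177 genes (33.9%) both stood above all 3 seed libraries, in 84 (47.5%) they overlapped the seeds, and in 33 (18.6%) both stood below all 3. Over all genes tested, those that reached 1 RPKM in 3 or more libraries, both stood above the seeds in 24.9%, overlapped them in 49.4% and stood below them in 25.8%. The overlapping share of the members was thus near that of all genes. The genes with replicates 2 and 3 above the seeds outnumbered those with them below, but this order depended on the rule. With a seed mean of at least 5 RPKM it took 16 above and 19 below, and at 6-fold 16 and 15. At 3-fold it took 141 and 66. Members with a seed mean from 1 to under 2 RPKM had 25 above and 5 below, and those at 20 RPKM or more had 2 and 8. With libraries brought to the same distribution by quantile normalization, 55 genes were above and 45 below, in place of 60 and 32 among the 172 members that passed the filter.

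**Figure D1:**
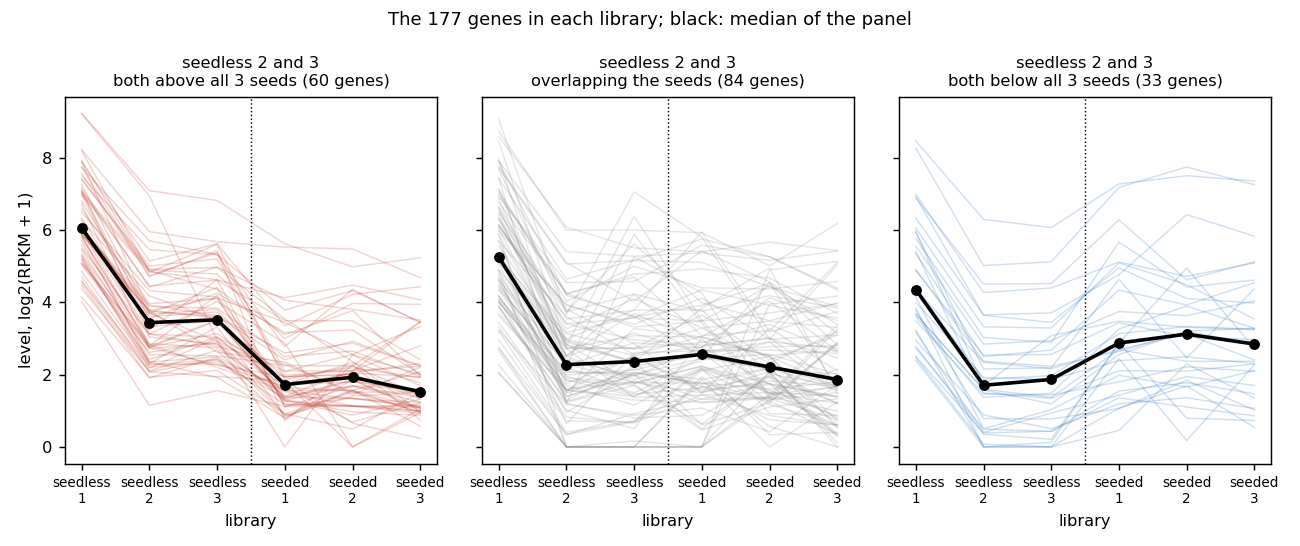
Levels of the 177 genes in the 6 libraries, as log2(RPKM + 1), split by where seedless replicates 2 and 3 lay against the 3 seed libraries. Thin lines are genes and the black line is the median of each panel. By the split, the medians of seedless replicates 2 and 3 are above those of the seeds in the left panel (60 genes). They are mixed with the seeds in the middle panel (84 genes) and, by the split, below them in the right panel (33 genes). Seedless replicate 1 has the highest median in every panel.

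The 3 classes differed in level as well. Where replicates 2 and 3 were above the seeds, the median gene had 66 RPKM in seedless replicate 1, 9.9 and 10.5 RPKM in seedless replicates 2 and 3, and 2.31, 2.81 and 1.89 RPKM in the seeds. Where they overlapped the seeds, it had 37.3, 3.85 and 4.15 RPKM in the seedless libraries and 4.9, 3.64 and 2.65 RPKM in the seeded ones. Where they were below the seeds, it had 19.5, 2.27 and 2.65 RPKM in the seedless libraries and 6.35, 7.72 and 6.21 RPKM in the seeded ones. In the first class the levels step down from seedless replicate 1 through replicates 2 and 3 to the seeds. In the last class seedless replicates 2 and 3 are the lowest. Both orders are set by the rule and by the split into classes, so only the sizes of the steps are described.

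The difference of seedless replicates 2 and 3 from the seeds had a median of 0.25 over the 177 genes, with quartiles of -0.51 and 1.12, against a median of -0.02 and quartiles of -0.34 and 0.36 over all genes tested. For 99 of the 177 genes (55.9%) it was less than 2-fold in either direction. It reached 2-fold upward in 54 genes (30.5%, against 10.1% of all genes tested) and downward in 24 genes (13.6%, against 4.31%). At 4-fold the counts were 17 upward and 5 downward, against 2.75% and 0.459% of all genes tested. Members thus lay beyond 2-fold more often in both directions, but the rule used the values of replicates 2 and 3. In 36 members seedless replicate 1 was under 2 log2 units above the seed mean, and there the rule makes the difference negative. Seeds also varied more among themselves in the members, with a median SD of 0.46 on the log2 scale against 0.21. The shares are therefore a description.

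A test of seedless replicates 2 and 3 against the 3 seeds, with seedless replicate 1 left out, covered the 172 members that passed the filter and was fitted and adjusted over all 18749 tested genes. Of these members 30 (17.4%) were higher in the traces, 13 (7.56%) were lower and 129 passed in neither direction (limma, Benjamini-Hochberg adjusted p under 0.05). Over all genes tested, 8.91% were higher and 6.61% were lower. Replicates 2 and 3 entered the rule, which keeps them more than 4-fold below seedless replicate 1 on RPKM + 1 and so holds their values down, and the counts are for that reason a description. Without seedless replicate 2 the fit called 9 members higher and 2 lower, where it called 2.65% and 0.832% of all genes tested. Without seedless replicate 3 it called 7 and 3 members, against 2.63% and 0.837% of all genes. With no filter on low values it called 13 and 6 members, against 3.64% and 1.89% of all 29536 genes, so calls fell over all genes as well. A member that did not pass is not shown to be level with the seeds, since the median standard error of a member was 0.34 on the log2 scale, against 0.21 over all genes tested.

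**Figure D2:**
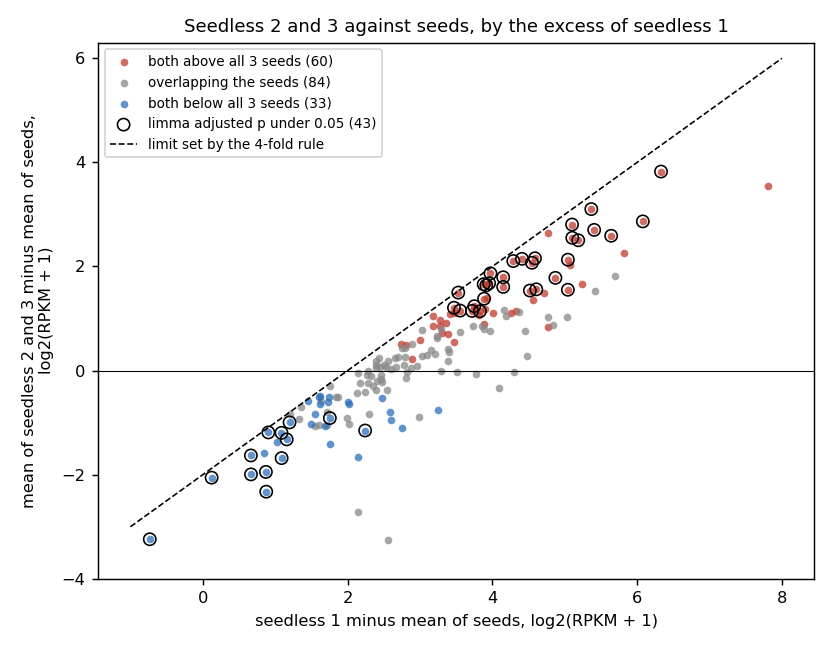
Difference of the mean of seedless replicates 2 and 3 from the mean of seeds (y axis) against the difference of seedless replicate 1 from the mean of seeds (x axis), both on log2(RPKM + 1), for the 177 genes. Colours give the position against the seed libraries, rings mark the 43 genes with a limma adjusted p under 0.05, and no gene can lie above the dashed line because of the 4-fold rule; the 30 ringed genes above 0 have an excess of 3.47 to 6.33 in seedless replicate 1 and the 13 below 0 one of -0.73 to 2.24.

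The position of replicates 2 and 3 is tied by the rule to the excess of seedless replicate 1 over the seeds, since their difference from the seeds must be over 2 log2 units smaller. The counts by excess are therefore a description. Among the 42 genes that were at least 4 log2 units above the seed mean in seedless replicate 1, replicates 2 and 3 were above all seeds in 30, overlapped them in 12 and were below them in none, with a median difference of 1.64. Among the 46 genes between 3 and 4 log2 units they were above in 26 and below in 1. Among the 53 genes between 2 and 3 log2 units they were above in 4, overlapped in 41 and were below in 8. For the 36 genes under 2 log2 units the rule itself makes the difference negative.

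As a share of the distance from seeds to seedless replicate 1, where 0 is level with the seeds and 1 level with seedless replicate 1, replicates 2 and 3 had a median of 0.1 over the 169 genes at least 1 log2 unit higher in seedless replicate 1. The 4-fold rule caps this share, at 0.37 for the median gene. It was below 0 in 64 genes, from 0 to under 0.25 in 49, from 0.25 to under 0.5 in 52, and 0.5 or more in 4. Genes outside the rule were counted beside the members. Of 855 genes with seedless replicate 1 over 4 times the seed mean on RPKM + 1, 135 were members and 720 were not. Replicates 2 and 3 were above all seeds in 60 of the 135 members (44.4%) and in 561 of the other 720 (77.9%), and the median share was 0.2 and 0.5. In each of the 720, seedless replicate 1 was at most 4 times replicate 2 or replicate 3 on RPKM + 1. The contrast is thus between opposite selections on the same values and does not measure the cap. The other 42 of the 177 genes were not over 4-fold above the seed mean in seedless replicate 1.

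**Figure D3:**
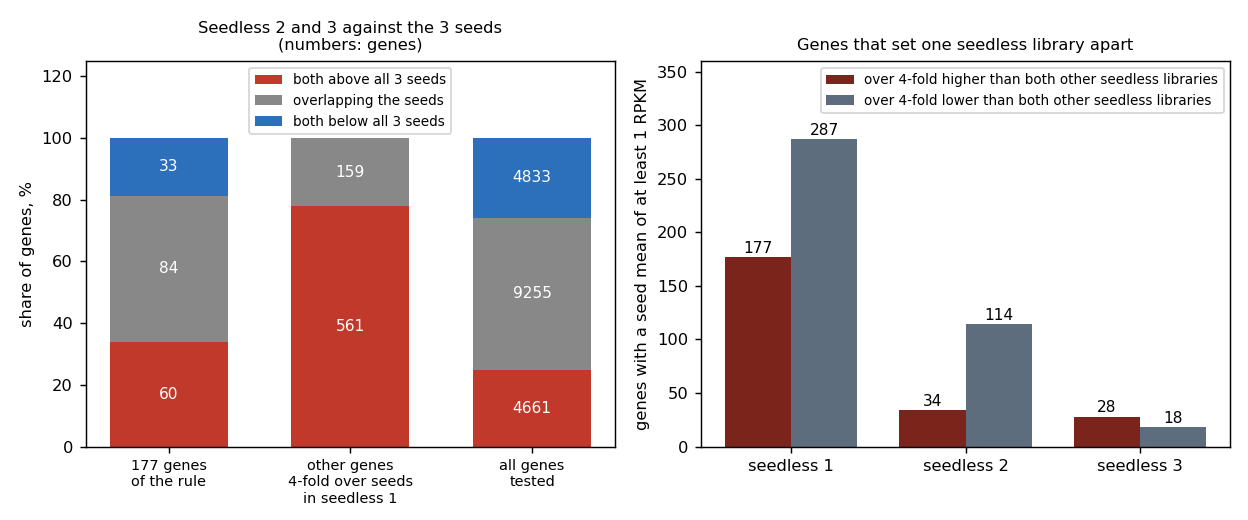
Left, share of genes (percent, with gene counts in the bars) in which seedless replicates 2 and 3 were both above, overlapped or were both below the 3 seed libraries, for the 177 genes, the 720 other genes over 4-fold above the seed mean in seedless replicate 1, and the 18749 genes tested. Right, number of genes with a seed mean of at least 1 RPKM that were over 4-fold higher or lower in 1 seedless library than in both others; seedless replicate 1 has 177 and 287, seedless replicate 2 has 34 and 114, and seedless replicate 3 has 28 and 18.

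Seedless replicate 1 was the trace set apart most often by the same fold. Its 177 genes compare with 34 genes that were over 4-fold higher in seedless replicate 2 than in both other traces, and 28 in seedless replicate 3. For the 34 genes of replicate 2 the other traces were above all seeds in 1 (2.9%) and below them in 10 (29.4%). For the 28 genes of replicate 3 they were above in none and below in 8 (28.6%). Shares over all genes were not computed for these pairs of traces, so the counts are a description. The sets also differed in the excess of their own library over the seeds, with a median of 3.00 for seedless replicate 1, 1.18 for replicate 2 and 1.76 for replicate 3. As the rule ties that excess to the position of the other traces, the 3 sets are not ranked by it. In the other direction, 287 genes were over 4-fold lower in seedless replicate 1. For them replicates 2 and 3 were above all seeds in 59 (20.6%) and below in 71 (24.7%). These shares were near the 24.9% and 25.8% of all genes tested.

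The most abundant member in seedless replicate 1 was VIT_06s0004g04660, with 603 RPKM there, 136 and 112 RPKM in seedless replicates 2 and 3, and 48.4, 30.7 and 36.7 RPKM in the seeds (replicates 1 to 3). The libraries followed the graded order without overlap, and the difference of replicates 2 and 3 from the seeds was 1.68 (SE 0.214, limma adjusted p = 0.00794). It lost the threshold without seedless replicate 2 or 3 and with seedless replicate 1 included (limma adjusted p = 0.0748, 0.0615 and 0.0513).

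Among the genes with the largest difference, VIT_09s0002g01090 had 190 RPKM in seedless replicate 1, 25.1 and 42.2 RPKM in seedless replicates 2 and 3, and 0.649, 3.83 and 0.677 RPKM in the seeds. Its difference was 3.82 (SE 0.533, limma adjusted p = 0.00978), and it rested on 8, 56 and 8 reads in the seeds. The call was lost without seedless replicate 2, without seedless replicate 3 and with no filter (limma adjusted p = 0.0695, 0.0966 and 0.0663). VIT_02s0087g01020 was steadier, with 89.7 RPKM in seedless replicate 1, 19.1 and 16.8 RPKM in seedless replicates 2 and 3, and 1.28, 1.18 and 1.14 RPKM in the seeds. The seeds of this gene averaged 1.2 ± 0.0703 RPKM (SD, n = 3), and the difference was 3.10 (SE 0.185, limma adjusted p = 0.00142, and at most 0.0241 in any of 15 other settings).

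VIT_15s0048g02430 had 153 RPKM in seedless replicate 1, 12.0 and 20.3 RPKM in seedless replicates 2 and 3, and 1.19, 1.55 and 1.13 RPKM in the seeds, a difference of 2.87 (SE 0.270, limma adjusted p = 0.00415). VIT_12s0034g01140 had 168 RPKM in seedless replicate 1, 31.2 and 35.9 RPKM in replicates 2 and 3, and 2.96, 3.33 and 5.97 RPKM in the seeds, a difference of 2.81 (limma adjusted p = 0.00444, and 0.0512 and 0.0572 without seedless replicate 2 or 3). Both showed the same step, with no overlap between any of the 3 levels. Of the 30 genes called higher, 6 passed in every other setting tried, among them VIT_02s0087g01020 and VIT_15s0048g02430. The 30 genes were mostly low in the seeds, with a median seed mean of 1.95 RPKM, and VIT_06s0004g04660 was the highest of them there.

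**Figure D4:**
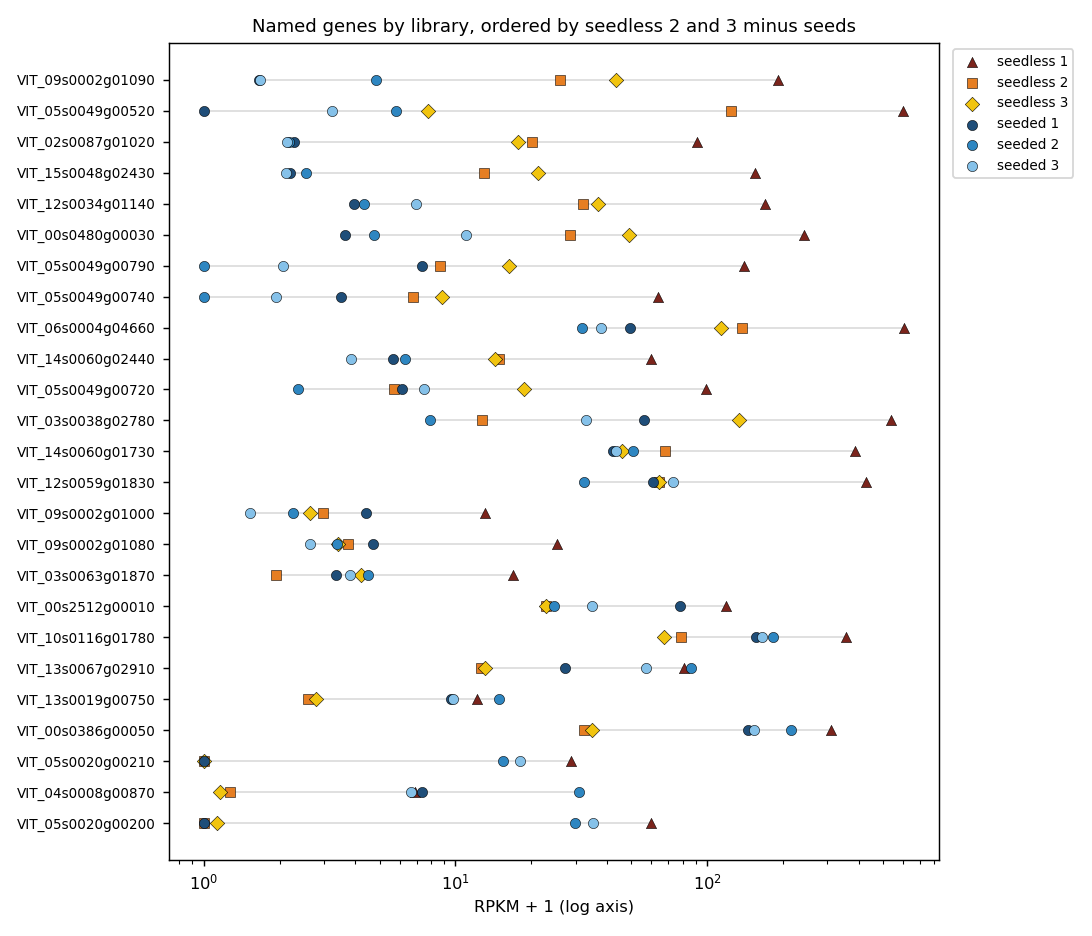
RPKM + 1 on a log axis in each of the 6 libraries for 25 of the 177 genes, ordered from the highest difference of seedless replicates 2 and 3 from the seeds (top) to the lowest (bottom). In the upper rows the squares and diamonds of seedless replicates 2 and 3 lie between the triangle of seedless replicate 1 and the circles of the seeds, and in the lower rows they lie to the left of most or all seeds.

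Some of the most abundant members passed in neither direction. VIT_14s0060g01730 had 387 RPKM in seedless replicate 1, 67.1 and 44.7 RPKM in seedless replicates 2 and 3, and 41.3, 49.9 and 42.4 RPKM in the seeds. VIT_12s0059g01830 had 427 RPKM in seedless replicate 1, 63.1 and 63.1 RPKM in seedless replicates 2 and 3, and 60.1, 31.4 and 72.0 RPKM in the seeds. In both genes seedless replicate 1 stood above all other libraries, replicates 2 and 3 overlapped the seeds, and the differences of replicates 2 and 3 from the seeds were 0.30 and 0.29 (limma adjusted p = 0.357 and 0.607).

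Of the other 4 members among the 6 most abundant in seeds, 3 were called lower in replicates 2 and 3. VIT_00s0386g00050 had 309 RPKM in seedless replicate 1, 31.5 and 33.9 RPKM in seedless replicates 2 and 3, and 145, 214 and 153 RPKM in the seeds. Here seedless replicate 1 was nearest to the seeds among the traces, and the difference of replicates 2 and 3 was -2.33 (SE 0.197, limma adjusted p = 0.00346). VIT_10s0116g01780 had 354 RPKM in seedless replicate 1, 78.0 and 66.5 RPKM in seedless replicates 2 and 3, and 155, 181 and 164 RPKM in the seeds, a difference of -1.20 (SE 0.141, limma adjusted p = 0.00668, and 0.058 without seedless replicate 3).

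VIT_13s0067g02910 had 80.2 RPKM in seedless replicate 1, 11.6 and 12.1 RPKM in seedless replicates 2 and 3, and 26.2, 85.5 and 56.2 RPKM in the seeds, so seedless replicate 1 lay within the range of the seeds. Its difference was -1.99 (limma adjusted p = 0.0388). Among the settings that ended this call were the fits without seedless replicate 2 or 3 and without seeded replicate 2 or 3. Limma's voom on recovered reads also missed the threshold (limma adjusted p = 0.0785). VIT_13s0019g00750 had 11.2 RPKM in seedless replicate 1, 1.58 and 1.80 RPKM in seedless replicates 2 and 3, and 8.62, 13.9 and 8.74 RPKM in the seeds, a difference of -2.06 (limma adjusted p = 0.00768, and 0.0686 and 0.0664 without seedless replicate 2 or 3). VIT_04s0008g00870 had 5.91 RPKM in seedless replicate 1, 0.277 and 0.157 RPKM in seedless replicates 2 and 3, and 6.35, 30.0 and 5.65 RPKM in the seeds. It had 2 and 1 reads in seedless replicates 2 and 3, and its call (limma adjusted p = 0.0302) was lost without seedless replicate 2 or 3, with no filter and with limma's voom on recovered reads (limma adjusted p = 0.157, 0.178, 0.135 and 0.172). VIT_00s2512g00010, also among the most abundant members in seeds, had 118 RPKM in seedless replicate 1, 21.8 and 22 RPKM in seedless replicates 2 and 3, and 77.1, 23.7 and 33.9 RPKM in the seeds, and its difference of -0.83 missed the threshold (limma adjusted p = 0.27).

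None of the 13 genes called lower passed in the fit with all 3 seedless libraries. In 10 of the 13 seedless replicate 1 stood above all seeds, and its difference from the seed mean over the 13 had a median of 0.91. That fit called 15 members, all of them higher. Over all genes it called 7.18% higher and 5.1% lower, and its member counts rest on the library that chose the genes. One of the 13 genes, VIT_18s0041g01680, shares the scaffold of VIT_18s0041g01880 on chromosome 18 and is named for that position after its values were seen. It had 40.1 RPKM in seedless replicate 1, 4.66 and 5.42 RPKM in seedless replicates 2 and 3, and 19.3, 14.3 and 22.4 RPKM in the seeds, a difference of -1.68 (limma adjusted p = 0.00879, and 0.0761 and 0.0682 without seedless replicate 2 or 3).

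The rule set its threshold through continuous values. The members nearest to it were VIT_03s0038g02780, VIT_03s0063g01870 and VIT_14s0060g02440, where RPKM + 1 in seedless replicate 1 was 4.01, 4.02 and 4.02 times that of the higher of the other traces. Just outside it were VIT_11s0016g04960, VIT_17s0000g03280 and VIT_15s0107g00550, at 4.00, 3.99 and 3.99 times after rounding. VIT_14s0060g02440 had 58.6 RPKM in seedless replicate 1, 13.8 and 13.4 RPKM in seedless replicates 2 and 3, and 4.66, 5.30 and 2.85 RPKM in the seeds. VIT_17s0000g03280, which was not taken, had 447 RPKM in seedless replicate 1, 87.3 and 111 RPKM in seedless replicates 2 and 3, and 40.7, 61.6 and 46 RPKM in the seeds.

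Seedless replicates 2 and 3 were close to each other over most members. Replicate 2 was the higher in 78 genes and replicate 3 in 91, 8 were equal, and 157 genes were within 2-fold. In 4 genes replicate 2 was more than 4-fold below replicate 3, and in all 4 seeded replicate 2 was also the lowest of the seeds. VIT_03s0038g02780 had 536 RPKM in seedless replicate 1, 11.7 and 133 RPKM in the other traces, and 55.1, 6.95 and 32 RPKM in the seeds. VIT_14s0068g01700 had 353, 5.98 and 82.7 RPKM in the seedless libraries and 10.4, 1.72 and 9.36 RPKM in the seeded ones. VIT_01s0010g02310 had 174, 1.32 and 37.5 RPKM in the seedless libraries and 18.3, 1.59 and 8.54 RPKM in the seeded ones, and VIT_00s0332g00060 had 249, 3.77 and 58.2 RPKM against 9.68, 1.55 and 6.24 RPKM. The libraries numbered 2 were thus the lowest of their class in these 4 genes, which were named for that after their values were seen. For VIT_03s0038g02780 the difference from the seeds was -0.94 without seedless replicate 3 and 2.45 without seedless replicate 2. Across the 177 genes, the log2 difference of seedless replicate 2 from 3 and that of seeded replicate 2 from the mean of seeded 1 and 3 correlated at r = 0.4, against 0.22 across the 18749 tested genes, where the points share the same libraries.

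The order of the seeds was not used by the rule, which took only their mean. Seeded replicate 3 was the lowest of the seeds in 90 members (50.8%), seeded replicate 1 in 47 (26.6%) and seeded replicate 2 in 39 (22%), with 1 member tied. Over all genes tested these shares were 30.9%, 34% and 33.8%. Seeds varied more among themselves in the members than elsewhere, with a median SD of 0.46 on the log2 scale against 0.21, at a lower median level.

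Some members split the hybrids across the classes. VIT_05s0020g00200 had 58.9 RPKM in seedless replicate 1, 0 and 0.124 RPKM in seedless replicates 2 and 3, and 0, 28.9 and 34.1 RPKM in the seeds. Its neighbour VIT_05s0020g00210 had 27.8 RPKM in seedless replicate 1, was listed at 0 in seedless replicates 2 and 3, and had 0, 14.5 and 17.1 RPKM in the seeds. Both genes were thus detected in seedless replicate 1 and seeded replicates 2 and 3 and at or near 0 in the other 3 libraries, with 520, 0 and 1 reads of VIT_05s0020g00200 in the seedless and 0, 330 and 315 reads in the seeded libraries. Their differences from the seeds were -3.26 and -2.71, among the 6 lowest, which did not pass (limma adjusted p = 0.205 and 0.197) and did pass without seeded replicate 1 (limma adjusted p = 0.00787 and 0.00815). Of the neighbours, VIT_05s0020g00230 had 8.73, 8.60 and 8.27 RPKM in the seedless and 8.86, 5.69 and 11.2 RPKM in the seeded libraries, with no such split. VIT_05s0020g00220 had 3.00, 0 and 0.204 RPKM in the seedless and 0.172, 0.290 and 1.26 RPKM in the seeded libraries, and did not pass the filter. VIT_05s0020g00170 had 14.6, 87.0 and 98.5 RPKM in the seedless and 50.2, 26.5 and 39.9 RPKM in the seeded libraries. It was lower in the libraries where the pair was detected than in the others.

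Members were spread over all 19 chromosomes, with 15 more on unplaced scaffolds. Chromosome 14 held 16, chromosome 18 held 13, chromosome 5 held 12 and chromosome 17 held 3. The members passing the filter were 0.92% of all genes tested, and on single chromosomes from 0.38% on chromosome 17 to 1.39% on chromosome 16. Some lay next to each other: 36 members fell into 17 runs of 2 or 3 genes on the same scaffold with identifier numbers at most 100 apart. Model lengths, recovered from the RPKM steps, had a median of 1168 bases in the members and 1368 bases over the tested genes.

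A stretch on scaffold 49 of chromosome 5, described for holding a run of 3 members and the second most abundant member, had 5 members among 22 listed genes from VIT_05s0049g00520 to VIT_05s0049g00790. VIT_05s0049g00520 had 597 RPKM in seedless replicate 1, 123 and 6.81 RPKM in seedless replicates 2 and 3, and 0, 4.83 and 2.24 RPKM in the seeds. Its replicates 2 and 3 differed from each other more than replicate 3 did from the seeds, and the difference of 3.55 did not pass (SE 1.27, limma adjusted p = 0.113). VIT_05s0049g00790 had 139 RPKM in seedless replicate 1, 7.69 and 15.3 RPKM in seedless replicates 2 and 3, and 6.33, 0 and 1.06 RPKM in the seeds. VIT_05s0049g00740 had 62.6 RPKM in seedless replicate 1, 5.78 and 7.84 RPKM in seedless replicates 2 and 3, and 2.5, 0 and 0.929 RPKM in the seeds, and the difference of 2.03 missed the threshold (limma adjusted p = 0.0518). VIT_05s0049g00720 had 97.5, 4.70 and 17.8 RPKM in the seedless and 5.12, 1.37 and 6.50 RPKM in the seeded libraries, where replicate 2 overlapped the seeds.

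Not all genes of this stretch followed seedless replicate 1. Of the 13 genes that passed the filter 5 are members, which the rule requires to be highest in seedless replicate 1 among the traces. Of the other 8, seedless replicate 1 was the highest library in 4, and in 7 seedless replicates 2 and 3 were both above all seeds. The latter held for 24.9% of all genes tested. How often seedless replicate 1 was the highest library over all genes was not computed. The stretch was chosen for its members, so these counts are a description. VIT_05s0049g00660 had 60.6 RPKM in seedless replicate 1, 53.2 and 70.8 RPKM in the other traces, and 16.4, 2.30 and 9.71 RPKM in the seeds, so all 3 traces were at one level. VIT_05s0049g00560 had 2.94 RPKM in seedless replicate 1, 15.1 and 12.3 RPKM in the other traces, and 0.0692, 0 and 0.216 RPKM in the seeds, with seedless replicate 1 the lowest trace. Neighbouring genes of near-identical sequence can share reads, so levels within such a stretch are uncertain.

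**Figure D5:**
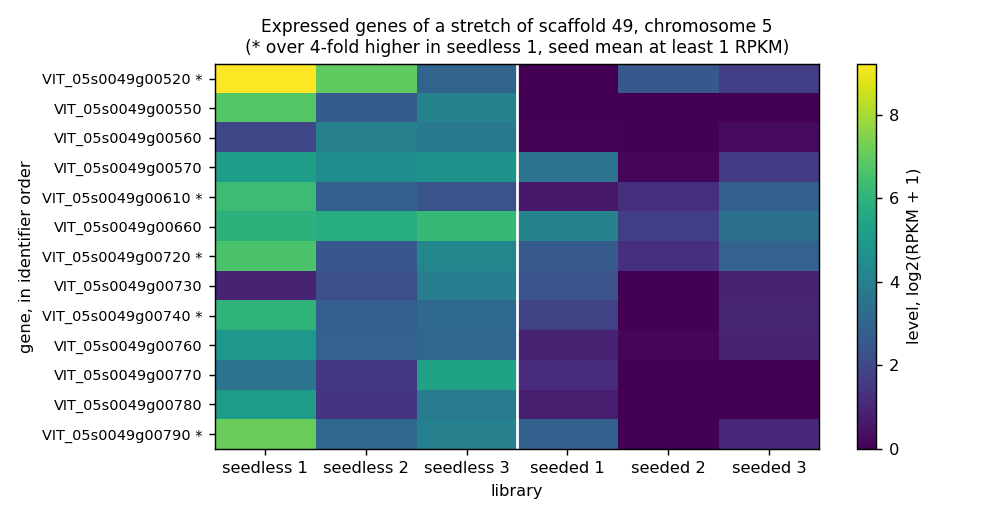
Levels, as log2(RPKM + 1), of the 13 genes that passed the filter between VIT_05s0049g00520 and VIT_05s0049g00790, in identifier order, with libraries in columns and the 177-gene members marked by an asterisk. Seedless replicate 1 is the highest library in 9 of the 13 genes, 5 of them members. Seeded replicate 2 is the lowest seed, with ties left out, in 8, against 33.8% of all genes tested.

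On scaffold 2 of chromosome 9, VIT_09s0002g01090 lay beside VIT_09s0002g01080, which had 24.4 RPKM in seedless replicate 1, 2.75 and 2.41 RPKM in seedless replicates 2 and 3, and 3.69, 2.37 and 1.63 RPKM in the seeds. The third gene of this run, VIT_09s0002g01000, had 12.0, 1.97 and 1.64 RPKM in the seedless and 3.39, 1.27 and 0.524 RPKM in the seeded libraries. Neighbours thus did not share a position: replicates 2 and 3 were above the seeds in VIT_09s0002g01090 (difference 3.82) and overlapped them in the other 2 genes (0.04 and 0.18, limma adjusted p = 0.935 and 0.825), whose sign turned under quantile normalization. In another of the 17 runs, replicates 2 and 3 were below all seeds in VIT_13s0019g03040 and narrowly above them in VIT_13s0019g03090. The second gene had 3.23 and 4.36 RPKM in replicates 2 and 3, and 2.12, 1.95 and 3.22 RPKM in the seeds. Its difference of 0.49 did not pass (limma adjusted p = 0.241). That of VIT_13s0019g03040 was -1.15 (limma adjusted p = 0.0423, and 0.0537 with limma's voom on recovered reads). Opposite positions are thus not shown for this pair. The pair VIT_00s0480g00030 and VIT_00s0480g00040 on an unplaced scaffold, also 1 of the 17 runs, moved together. The first had 243 RPKM in seedless replicate 1, 27.6 and 47.9 RPKM in seedless replicates 2 and 3, and 2.64, 3.75 and 9.96 RPKM in the seeds (limma adjusted p = 0.0219). The second had 213, 25.8 and 40.6 RPKM in the seedless and 3.30, 3.30 and 10.1 RPKM in the seeded libraries (limma adjusted p = 0.0223). Both calls were lost without seedless replicate 2 (limma adjusted p = 0.0978 and 0.105), without seedless replicate 3 (0.161 and 0.163), without seeded replicate 2 (0.0691 and 0.0652) and with no filter (0.108 for each), and that of VIT_00s0480g00040 also without seeded replicate 1 (0.056).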

How the data were processed

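Libraries were made from total RNA with the TruSeq Stranded mRNA kit, per the labels' protocols. The authors deposited RPKM values in 1 table, where each library has a column and rows carry 12X V1 identifiers, per the file header. Among the tools in the submitters' processing notes are HTSeq 0.5.4p5, TopHat2 2.0.13 and edgeR 2.2.6, with no roles. Build and strand setting are not given in the sources used here, so antisense or overlapping genes cannot be told apart. Of 29548 rows, 12 held an unreadable value and were left out. Classes were taken from the phenotype label; seeded samples carry Seededless in their titles, against their other labels.

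The 18749 genes that reached 1 RPKM in 3 or more libraries were compared on log2(RPKM + 1), a scale on which changes of low genes come out too small, with limma 3.58.1 in R 4.3.3 (trend, two-sided, Benjamini-Hochberg, threshold 0.05), with seedless replicates 2 and 3 against seeded replicates 1 to 3. On simulated data for this comparison (18749 genes), 17 of 100 genes changed by 1 and 63 of 100 changed by 2 on the log2 scale were found, with 7 false calls among 18549. The noise was normal, with SDs taken from the same libraries. So few genes were changed, against 8.91% called higher and 6.61% lower in the data, that the adjustment was stricter there. The shares found therefore need not hold for these data. Whole reads and model lengths were recovered from the RPKM steps for 23325 of the 24536 genes above 0, with library totals of 6576771 to 9267652; the reads recovered summed to 93.29% to 103.7% of those totals, so the totals are not plain sums of reads. A single read on 1 kb was worth 0.108 to 0.152 RPKM, which covers counting error only. Tested on simulated data of 2992 genes, the step recovered 98.2%, and reads were right in 98.7% of those. Python 3.11.15 with numpy 2.4.6, pandas 2.3.3 and matplotlib 3.10.9 was used.

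The genes, lists and settings were chosen with earlier results of these data known. Genes were named by rule: the 6 highest in seedless replicate 1, the 6 highest in seeds, the 6 highest and 6 lowest differences from the seeds, 3 genes on each side of the threshold, and the longest runs. Outside that rule, with values seen, were VIT_00s0480g00040, VIT_05s0049g00560, VIT_05s0049g00660, VIT_13s0019g03040, VIT_13s0019g03090 and the neighbours of VIT_05s0020g00210 that are not members. Others are marked where they appear. None of the identifiers matched the 29591 genes of the reference table ASM3070453v1, so no function groups or sequences are given. The labels name a different hybrid for each replicate number, and no label says that replicates are technical.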

Additional observations from a re-analysis of the deposited data

How the results depend on the processing

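The settings changed were the pseudocount, the filter, the scaling, the variance model, the libraries, the values and a replicate block. Over the settings that left out 1 library, 7 to 29 members were higher and 2 to 13 lower, the median difference over the members tested was 0.26 to 0.39 (0.28 with all libraries of the fit), 65 to 81 members were above all seeds and 35 to 44 below. A lone trace library was assumed to vary like the seeds. Leaving out a library can raise the counts above and below all seeds but cannot lower them. These counts therefore do not measure stability, and the shares over all genes in the same settings were not computed. With no filter 13 members were higher and 6 lower, with a filter of 5 RPKM 19 were below all seeds, since 106 members were then tested, and with all 3 seedless libraries 15 were higher, 0 lower and 0 below all seeds, with a median of 1.23. The 0 below all seeds was fixed, since seedless replicate 1 was below all seeds in 0 members. Limma's voom on recovered reads called 35 higher and 9 lower, and 38 of its calls were among the 43 of the main comparison. It kept all 30 of the genes called higher there but only 8 of the 13 called lower. Without any 1 seeded library, 18 of the 30 and 7 of the 13 passed in each fit. The rule took 394 genes at 3-fold, 55 at 6-fold and 74 with a seed mean of at least 5 RPKM. Of 372 comparisons of a named gene with a setting, 318 gave the same direction and call, 34 lost a call, 9 gained one and 11 turned direction, none of them called in the main comparison. When 1 library was left out, the difference was -0.94 to 2.45 for VIT_03s0038g02780, -0.06 to 0.53 for VIT_12s0059g01830, -0.99 to 0.13 for VIT_03s0063g01870, -0.15 to 0.26 for VIT_09s0002g01080 and -0.17 to 0.59 for VIT_09s0002g01000. Quantile normalization gave -0.24 and -0.19 for the last 2 genes, equal medians -0.02 for VIT_09s0002g01080, and all 3 seedless libraries 0.42 for VIT_03s0063g01870. The cause was not tested.

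With the replicate block, 36 members were higher and 12 lower, 34 of them among the 43, and the median difference was 0.39. Across genes, libraries of the same number deviated from the mean of their class with correlations of 0.07, 0.18 and 0.1. Whether libraries of the same number share more than the number was not tested, and the main comparison left the number out.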

Other observations

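Seedless replicate 2 was also set apart, by low levels. With the same seed mean, 114 genes were over 4-fold lower in seedless replicate 2 than in both other traces, against 18 in seedless replicate 3. For these 114 genes seedless replicates 1 and 3 were above all seeds in 95 and overlapped them in 19, with a median difference from the seeds of 3.66 on log2(RPKM + 1), while the median difference of seedless replicate 2 was -0.33. The rule keeps seedless replicates 1 and 3 over 4-fold above replicate 2 on RPKM + 1. With replicate 2 near the seeds, it thereby favours a position of the other 2 traces above the seeds. The share over all genes for that pair of traces was not computed. The measured levels chose these genes, so the values are a description with no test.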
